A study of Mus musculus with 16 samples.

Results

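The 10 genes described here, *Pdgfra*, *Pdgfrb*, *Ly6a*, *Cd34*, *Dlk1*, *Dpp4*, *Pi16*, *Thy1*, *Eng* and *Itgb1*, are markers of preadipocytes and of the stromal progenitors from which fat cells form. They were taken by symbol from the 54347 genes of the count table, each matching 1 row, and were measured in 16 polyadenylated RNA libraries of mouse wt1-SAM brown adipocytes. wt1-SAM cells are brown preadipocytes made to grow without limit, and they permanently carry CRISPRa SAM, a gene activation system in which a dead Cas9 and activator proteins are brought to a gene by a single guide RNA (sgRNA). All cells, controls included, carried this system, were differentiated, received 250 ng of plasmid by reverse transfection on day 4 and were harvested on day 7. The plasmid was the empty sgRNA vector or the pair pSgRNA-MS2-2+7 directed at the long noncoding RNA gene *Gm15551* (sgRNA cells below), and cells with each plasmid were left as control or stimulated for 24 h with isoproterenol (1 µM), which activates β-adrenergic receptors. This gave 4 groups of 4 libraries, with replicate numbers 3, 4, 5 and 6 in each. As the cells come from 1 line, and nothing in the labels says how the replicates were cultured, p-values measure only the spread between these libraries.

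Fat progenitors in mouse adipose tissue are sorted by cell surface proteins. *Pdgfra* and *Pdgfrb* encode the receptor tyrosine kinases for platelet-derived growth factors, and *Ly6a* encodes Sca-1, a small protein anchored to the outer membrane by a lipid. *Cd34* encodes a sialomucin of progenitor and endothelial cells, *Thy1* another lipid-anchored surface protein, and *Eng* endoglin, a co-receptor for ligands of the TGF-β family. *Dlk1* (Pref-1) encodes an inhibitor of adipocyte differentiation whose level falls as preadipocytes mature, *Dpp4* a surface peptidase and *Pi16* a secreted peptidase inhibitor, the latter both used to mark interstitial progenitors. *Itgb1* encodes integrin β1, which pairs with many α subunits to bind extracellular matrix and is made by most adherent cells.

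Total estimated counts per library ranged from 9053521 to 16546187, of which 1 ribosomal RNA gene held 11.7% to 51.8%. That share was over 40% in 3 libraries, namely empty vector control replicate 5 and empty vector isoproterenol replicates 3 and 5, which left 5900607 to 6550827 counts for other genes. Levels are given in CPM, which are counts scaled to a common library size. *Gm15551* had a median of 1.03 CPM in empty vector control cells and 3.27 in sgRNA control cells, and of 0.0830 and 1.58 in the respective isoproterenol groups. The summed level of 10 adipocyte markers was 13720 to 28990 CPM, with *Fabp4* alone at a mean of 14460 CPM, so the libraries carried the RNA of differentiated adipocytes. Of markers of other cells, 6 of 7 endothelial, 6 of 7 immune, 3 of 5 mural and 4 of 5 mesothelial genes had a mean under 1 CPM, and *Emcn* and *Kcnj8* were at 0 in all libraries. In bulk RNA, fewer cells that express a gene and less of its RNA per cell cannot be told apart.

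Most progenitor genes were near or below the limit of detection, and *Itgb1* and *Ly6a* stood far above the rest. Per kilobase of exon, *Itgb1* had a mean of 87.9 CPM per kb ± 7.37 (SD, n = 16 libraries), above 96.7% of the 13150 genes tested. *Ly6a* followed with 25.1 CPM per kb ± 19.5, above 89.4% of them. The ranges of these 2 genes over the libraries, 71.6 to 102 for *Itgb1* and 2.30 to 67.9 for *Ly6a*, did not overlap, and both lay above the range of every other member. *Pdgfrb* with 0.744 CPM per kb ± 0.562 and *Pdgfra* with 0.271 ± 0.0762 came next. Their ranges overlapped, although *Pdgfrb* was the higher in 14 of 16 libraries. *Pi16* had 0.107 CPM per kb, *Eng* 0.0819, *Cd34* 0.0453, *Dlk1* 0.0265, *Thy1* 0.0191 and *Dpp4* 0.000752, and the range of each of these overlapped that of its neighbour in the order.

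**Figure D1:**
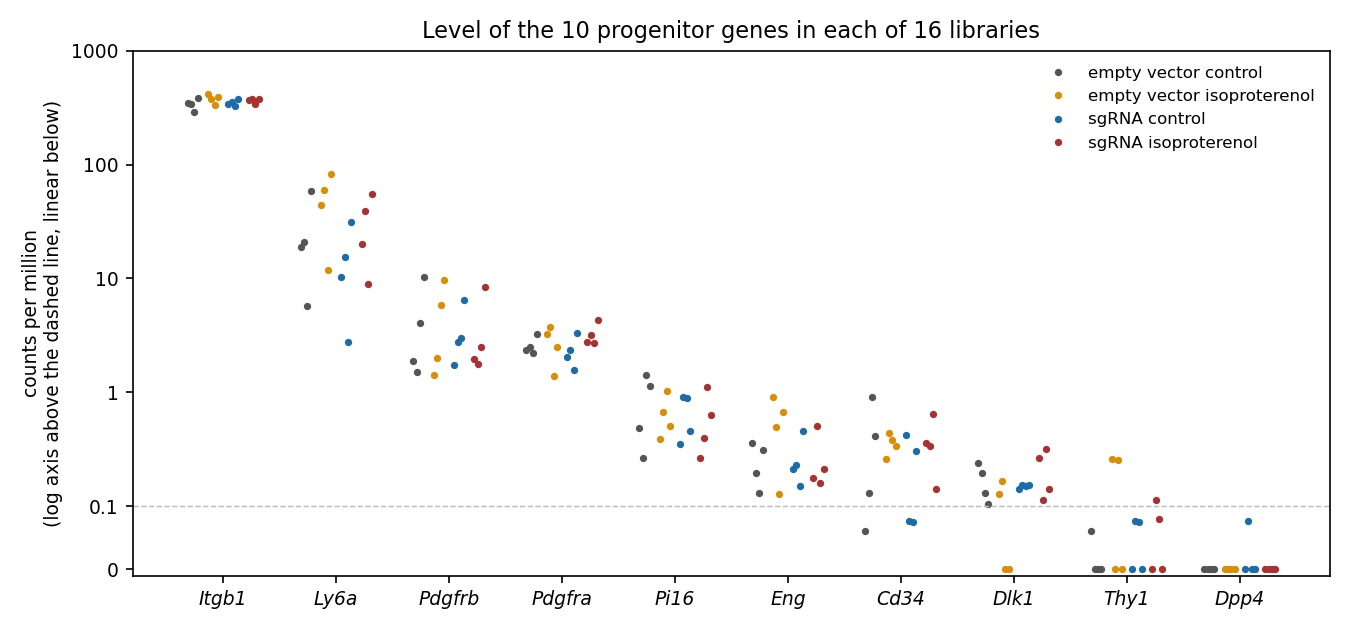
CPM of the 10 progenitor genes in each of 16 libraries, coloured by group, with genes in order of their mean. The vertical axis is logarithmic above 0.1 and linear below. Points of *Itgb1* lie between 292 and 415 and those of *Ly6a* between 2.77 and 81.8, while *Dpp4* is at 0 in 15 libraries.

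For the genes at the lower end of this order the depth of the libraries set the limit. Of the 10 genes, 5 passed the filter on low counts and were tested, namely *Pdgfra*, *Pdgfrb*, *Ly6a*, *Pi16* and *Itgb1*. The other 5 were too low for a test. *Eng* had 68 counts over all 16 libraries, with 1 to 9 in each. Its mean was 0.550 CPM ± 0.327 (SD, n = 4) in empty vector isoproterenol cells and 0.250 to 0.265 in the other 3 groups, and the 4 ranges overlapped. *Cd34* had 63 counts, with 1 to 8 in each library and group means of 0.219 to 0.379 CPM. *Dlk1* had 32 counts and was at 0 in 2 libraries, both of empty vector cells with isoproterenol. Over its 4 groups the pooled level was 0.0878 to 0.198 CPM, with exact Poisson intervals (95%, counting error only) of 0.0239 to 0.225 for the lowest and 0.0988 to 0.354 for the highest, so no difference was detectable at this depth. *Thy1* had 10 counts and was at 0 in 9 libraries. *Dpp4* had 1 count, in sgRNA control replicate 4, which corresponds to 0.00489 CPM over all libraries with an exact Poisson interval of 0.000124 to 0.0273.

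*Ly6a* lies on GRCm38 chromosome 15, at 74994877 to 74998031 on the minus strand (ENSMUSG00000075602), and was the tested member with the widest range, 4.81 on the log2 CPM scale. In replicates 3, 4, 5 and 6, empty vector control cells had 18.8, 20.96, 5.71 and 58.5 CPM of *Ly6a*, and empty vector cells with isoproterenol had 43.8, 59.5, 11.8 and 81.8 CPM. In the same order, sgRNA control cells had 10.3, 15.4, 2.77 and 31.2 CPM, and sgRNA cells with isoproterenol 19.9, 39.1, 8.89 and 54.9 CPM. Within a group the highest library was 6.18 to 11.3 times the lowest, and the ranges of all 4 groups overlapped. Yet replicate 5 was the lowest, followed by replicates 3, 4 and 6, in 4 of 4 groups. Compared within a replicate number, the isoproterenol library was the higher in 8 of 8 pairs and the sgRNA library the lower in 8 of 8 pairs. The *Ly6a* level was 1.40 to 3.09 times as high with isoproterenol as without, and 0.456 to 0.755 times as high with the sgRNA plasmids as with the empty vector.

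**Figure D2:**
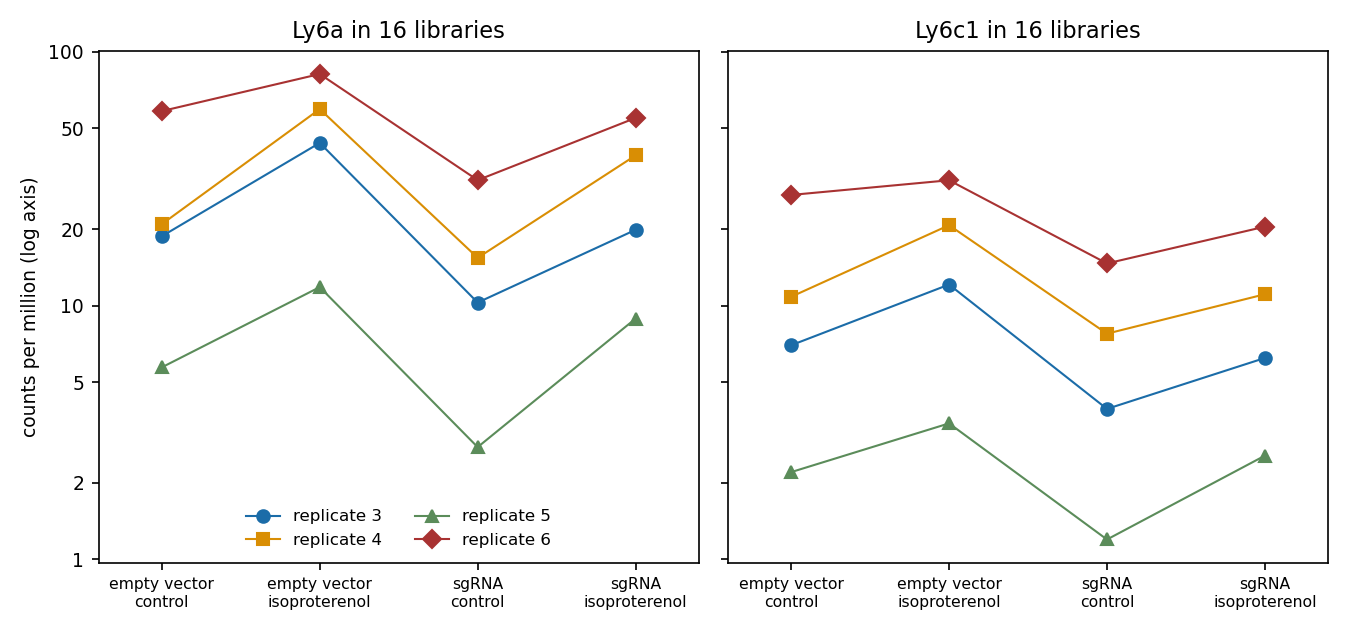
CPM of *Ly6a* (left) and *Ly6c1* (right) on a logarithmic axis in the 4 groups, with 1 point per library and lines that join libraries of the same replicate number. The 4 lines do not cross, with replicate 5 lowest and replicate 6 highest in every group, and each runs up from control to isoproterenol within a plasmid.

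Whether these differences passed a test turned on how the replicate number was handled. With the 4 group means alone, the quasi-likelihood test of edgeR, adjusted by Benjamini-Hochberg, called 0 of 5 tested members for isoproterenol (2330 genes had an unadjusted p under 0.05), against 2.65% of all genes tested. DESeq2 also called 0 members, against 3.54% of all genes. A gene was called where its adjusted p was below 0.05 and its log2 fold change beyond 0.5 in either direction. For *Ly6a* the log2 fold change was 0.99 (SE 0.51), and the adjusted p by edgeR was 0.340. Once replicate number was entered as a block, which the check of pairing warranted, edgeR called 1 of 5 members against 5.7% of all genes. That member was *Ly6a*, which rose by a log2 fold change of 1.09 with SE 0.11 (adjusted p = 4.92e-06). Its call held when each replicate number was left out in turn from the blocked fit, with a log2 fold change of 0.95 to 1.28, and without the 3 libraries with the most ribosomal RNA, with 1.02. The summed level of immune markers was also higher with isoproterenol, at medians of 19.8 against 10.8 CPM in empty vector cells and 18.35 against 8.21 in sgRNA cells, nearly all of it from *Cd68*. The summed level of adipocyte markers was lower with isoproterenol, at medians of 20390 against 26950 CPM in empty vector cells and 22690 against 26020 in sgRNA cells. Of these 10 genes edgeR without the block called 3, *Adipoq* (log2 fold change −1.06), *Lipe* (−0.69) and *Pnpla2* (−0.67). *Fabp4*, the highest, was not called (−0.34, SE 0.18, adjusted p = 0.351 by edgeR), nor were *Lpl* (−0.01), *Cd36* (−0.25), *Pparg* (−0.06), *Plin4* (0.07), *Cebpa* (−0.71) and *Plin1* (−0.57). The blocked fit called *Cebpa* and *Plin1* too. The summed level of brown adipocyte markers was higher with isoproterenol, at medians of 333.8 against 271.5 CPM in empty vector cells and 371.5 against 288.7 in sgRNA cells. *Ucp1*, the uncoupling protein of brown fat, rose (log2 fold change 4.03, adjusted p = 7.36e-06 by edgeR without the block, SE 0.37). In the same fit *Ppargc1a* rose too (0.71, SE 0.15, adjusted p = 0.0128). *Elovl3*, the highest of them at a mean of 267.3 CPM, was not called (0.25, SE 0.19, adjusted p = 0.547), nor was *Cidea* (1.19, SE 0.44, adjusted p = 0.155). *Ebf2* (−0.48, SE 0.10, adjusted p = 0.0109), *Prdm16* (−0.21, SE 0.34) and *Cox8b* (−0.02, SE 0.49) went the other way, and none of them was called. The mural markers had medians of 12.2 against 9.57 CPM in empty vector cells and 12.5 against 10.65 in sgRNA cells. The 2 of them that were tested went opposite ways, *Des* up (log2 fold change 0.44, SE 0.32) and *Cspg4* down (−0.28, SE 0.57). Neither was called, with or without the block. The mesothelial markers had medians of 3.38 against 3.05 CPM in empty vector cells and 3.68 against 2.20 in sgRNA cells. Of the tested mesothelial genes, the blocked fit called *Krt19* (log2 fold change 1.55, SE 0.33, adjusted p = 0.00371 by edgeR) but not *Msln* or *Lrrn4*. The endothelial markers were lower with isoproterenol, at medians of 2.125 against 2.791 CPM in empty vector cells and 2.359 against 2.432 in sgRNA cells, with ranges that overlapped. The part of these markers in the *Ly6a* difference was not tested.

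For the sgRNA plasmids against the empty vector, edgeR called 0 of 5 members and 0% of all genes without the block (437 genes had an unadjusted p under 0.05). DESeq2 called 0 members, against 10 genes or 0.076% of all. The log2 fold change of *Ly6a* was −0.74 (SE 0.51, adjusted p = 0.9997 by edgeR). With the block edgeR called 1 of 5 members against 0.266% of all genes. The *Ly6a* log2 fold change was then −0.74 with SE 0.11 (adjusted p = 0.00491). This call was lost when replicate 3 was left out of the blocked fit (−0.65, adjusted p = 0.0674), without the 3 libraries over 40% ribosomal RNA (−0.69, adjusted p = 0.0505), and with a covariate for the share of ribosomal RNA (−0.84, adjusted p = 0.111). The direction was lower in each. The share of ribosomal RNA moved with the plasmid, as in 8 of 8 pairs of libraries matched by number and treatment it was the sgRNA library that had less of it. Brown adipocyte markers had higher medians in sgRNA than in empty vector cells (288.7 against 271.5 CPM in control cells, 371.5 against 333.8 with isoproterenol). Immune markers, whose sum is nearly all *Cd68*, had lower ones (8.21 against 10.8 and 18.35 against 19.8). The ranges overlapped for both. Among the brown markers *Cidea*, a lipid droplet protein, was called in the blocked fit (log2 fold change 1.05, SE 0.21, adjusted p = 0.0348 by edgeR). The part of ribosomal RNA and of these markers in the *Ly6a* difference was not tested beyond the settings given. The interaction of plasmid and isoproterenol called 0 members and 0% of genes in edgeR (52 genes had an unadjusted p under 0.05 without the block and 199 with it), and was 0.12 for *Ly6a* on the log2 scale (adjusted p = 1.0).

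The gene whose pattern over the 16 libraries was most like that of *Ly6a* was *Ly6c1*, which encodes a related lipid-anchored protein of the Ly6 family. Likeness was taken as the root mean square difference of centred log2 CPM, which was 0.289 for *Ly6c1* and 0.655, 0.688, 0.713 and 0.725 for the next genes, *Medag*, *Lrrc32*, *Lamtor3-ps* and *Fgl1*. *Ly6c1* ranked first also without each replicate number in turn. The level of *Ly6c1* was 1.198 to 31.2 CPM, with the order of replicates seen for *Ly6a* in 4 of 4 groups. Its log2 fold changes in the blocked fit were 0.61 (SE 0.09) for isoproterenol and −0.76 (SE 0.09) for the sgRNA plasmids. As *Ly6c1* was chosen for its likeness to *Ly6a* over these same libraries, this order and these effects follow from the choice and are given as a description, with no test.

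The end of the coding sequences of *Ly6a* and *Ly6c1* is shown to set the 2 related genes side by side. The sequences come from the GENCODE transcripts of GRCm38, for the pair of isoforms with the highest identity, from aligned position 121 (counted from the start codon) to the last codon before the stop. Capitals mark the bases that differ or that the other gene lacks.
Ly6a: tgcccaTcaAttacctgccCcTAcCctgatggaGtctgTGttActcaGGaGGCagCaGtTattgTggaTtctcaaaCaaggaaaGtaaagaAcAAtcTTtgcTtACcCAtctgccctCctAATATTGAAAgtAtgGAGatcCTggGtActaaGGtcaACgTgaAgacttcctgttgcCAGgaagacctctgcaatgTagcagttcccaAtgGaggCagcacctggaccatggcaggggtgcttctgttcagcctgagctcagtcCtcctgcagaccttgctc
Ly6c1: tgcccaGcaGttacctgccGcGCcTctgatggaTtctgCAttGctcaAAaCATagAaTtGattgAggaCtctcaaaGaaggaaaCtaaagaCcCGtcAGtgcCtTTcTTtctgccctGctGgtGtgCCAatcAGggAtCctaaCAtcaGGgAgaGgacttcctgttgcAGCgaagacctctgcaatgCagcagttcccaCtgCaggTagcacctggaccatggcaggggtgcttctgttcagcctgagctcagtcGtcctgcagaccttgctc
Of 402 aligned positions, 329 (81.8%) were identical over the whole coding sequence, and the longest identical run, in lower case near the end of the stretch shown, was 48 bases. No aligned run of these 2 coding sequences thus reached the 50 bases used in the count that follows. Over all their transcripts, 246 of the 1297 stretches of 50 bases in *Ly6a* (19.0%) also occurred in another gene, 195 of them in *Ly6c1*. As salmon shares out a read that matches more than 1 transcript, some counts of each gene may stem from the other, and the values of both are uncertain to that extent. The *Ly6c1* level was 37.2% to 51.7% of that of *Ly6a* in the 8 control libraries and 27.6% to 38.1% in the 8 libraries with isoproterenol, and this percentage was the lower with isoproterenol in 8 of 8 pairs of the same number and plasmid. How far reads shared by both genes enter these values was not tested.

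The PDGF receptors differed from each other in how they varied. *Pdgfrb* (chromosome 18, 61045150 to 61085061, plus strand) had 1.87, 1.51, 4.03 and 10.4 CPM in replicates 3, 4, 5 and 6 of empty vector control cells and 1.42, 1.99, 5.85 and 9.59 CPM in those with isoproterenol. In sgRNA control cells it had 1.75, 2.74, 2.99 and 6.46 CPM, and in sgRNA cells with isoproterenol 1.95, 1.75, 2.48 and 8.47 CPM. Replicate 6 was thus the highest and replicate 5 the second highest in 4 of 4 groups. The ranges of the groups overlapped, with that of sgRNA control cells the narrowest. The log2 fold change of *Pdgfrb* was 0.10 (SE 0.50) with isoproterenol and −0.34 (SE 0.50) with the sgRNA plasmids. Its isoproterenol value was higher in 4 and lower in 4 of 8 pairs, and its sgRNA value higher in 2 and lower in 6 of 8. Neither effect was called by edgeR with or without the block, and both changed sign once the share of ribosomal RNA was a covariate, to −0.19 and 0.36.

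*Pdgfra* (chromosome 5, 75152292 to 75198215, plus strand) was steadier, at 1.40 to 4.31 CPM over all libraries, with 11 to 67 counts in each. Group means were 2.57 CPM ± 0.450 (SD, n = 4) and 2.71 ± 1.00 in empty vector cells without and with isoproterenol, and 2.33 ± 0.752 and 3.24 ± 0.741 in sgRNA cells. The log2 fold change with isoproterenol was 0.29 (SE 0.21, adjusted p = 0.525 by edgeR), with 6 of 8 pairs higher. With the block it was 0.30 (SE 0.16, adjusted p = 0.208 by edgeR). The sgRNA effect was 0.05 (SE 0.21), with 3 of 8 pairs higher, and turned to −0.05 with the ribosomal RNA covariate. Exons of *Pdgfra* overlap those of *Gm42802* and *Gm42803* on the other strand, and since the use of read strand was not stated for the counting, their reads may be mixed. The same holds for *Cd34*, *Dpp4*, *Pi16* and *Eng*, whose exons also overlap genes of the other strand.

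Of the ligands of these receptors, 2 of 4 were tested. *Pdgfa* had a mean of 11.1 CPM, above both receptors by CPM but without a correction for length, and *Pdgfc* 2.23 CPM. Their log2 fold changes with isoproterenol were 0.26 (SE 0.14) and 0.10 (SE 0.26), and neither was called.

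*Itgb1* (chromosome 8, 128685654 to 128733200, plus strand) varied least, by 0.51 on the log2 CPM scale over the 16 libraries. Its mean was 341 CPM ± 37.5 (SD, n = 4) in empty vector control cells and 378 ± 35.2 with isoproterenol, and 350 ± 22.7 and 367 ± 16.3 in sgRNA cells. It was higher with isoproterenol in 7 of 8 pairs, but the log2 fold change was 0.11 (SE 0.07, adjusted p = 0.476 by edgeR), and 0.11 (SE 0.04, adjusted p = 0.0943) with the block. The sgRNA effect was near 0 (−0.0021, SE 0.07), with 4 of 8 pairs higher, and its sign changed with the settings. *Pi16* (chromosome 17, 29317680 to 29330593, plus strand) had 3 to 14 counts in each library and 0.263 to 1.43 CPM, with log2 fold changes of −0.20 (SE 0.40) for isoproterenol and −0.17 (SE 0.40) for the sgRNA plasmids. Neither was called.

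**Figure D3:**
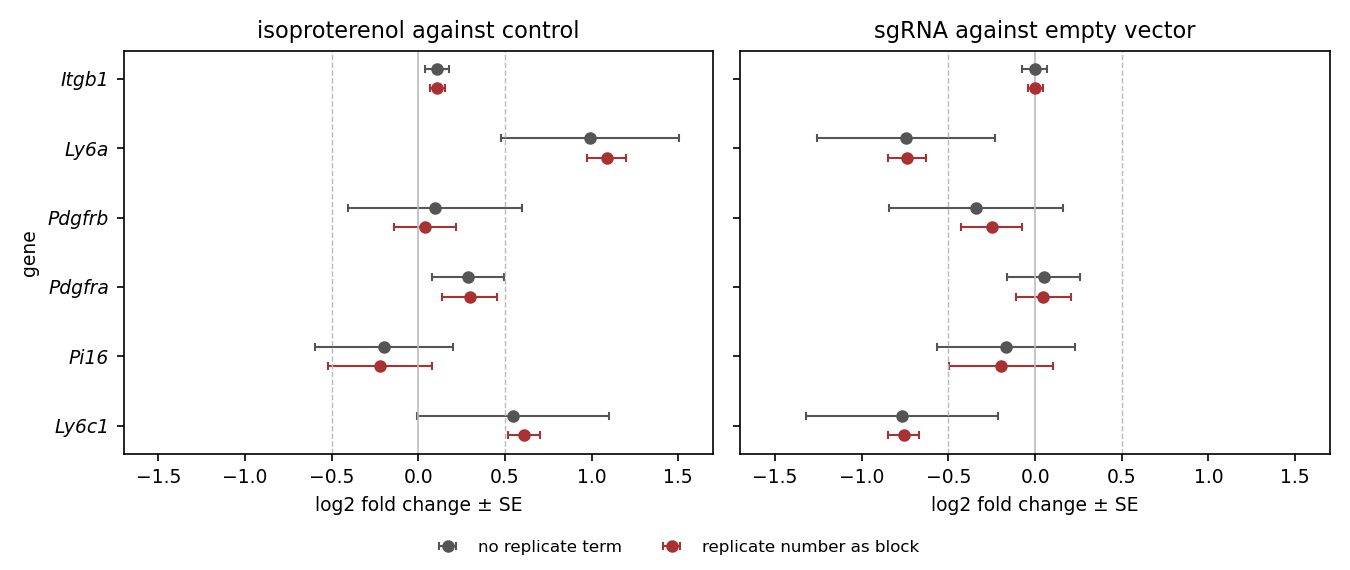
Log2 fold changes with their standard errors for the 5 tested progenitor genes and *Ly6c1*, for isoproterenol (left) and the sgRNA plasmids (right), without a replicate term (grey) and with replicate number entered as a block (red). Dashed lines mark the bound of 0.5. The *Ly6a* estimates hardly move between the fits, while their standard error falls from 0.51 to 0.11.

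Replicate number itself was tested as 3 coefficients jointly, in a model with group and replicate number. At an adjusted p under 0.001, edgeR called 2 of 5 tested members, against 19.6% of all genes tested. These were *Ly6a* (adjusted p = 4.27e-08) and *Pdgfrb* (adjusted p = 6.12e-06). *Ly6a* had a mean of 7.30 CPM ± 3.92 (SD, n = 4 libraries) in replicate 5 and 56.6 ± 20.7 in replicate 6. *Pdgfrb* had 1.75 CPM ± 0.235 in replicate 3, 2.00 ± 0.530 in replicate 4, 3.84 ± 1.49 in replicate 5 and 8.73 ± 1.702 in replicate 6. Both genes were thus highest in replicate 6, but in replicate 5 *Ly6a* was at its lowest and *Pdgfrb* at its second highest. Without replicate 6 the *Pdgfrb* adjusted p was 0.0289, above the threshold, so that 1 member remained called, while the share of all genes called fell to 4.26%. *Itgb1* (adjusted p = 0.0239), *Pi16* (adjusted p = 0.0353) and *Pdgfra* (adjusted p = 0.0535) missed the threshold of 0.001 in edgeR. At an adjusted p under 0.05 edgeR would call 4 of 5 members, against 54.7% of all genes. The likelihood ratio test of DESeq2 called 3 of 5 members, *Itgb1* (adjusted p = 0.000811) besides *Ly6a* and *Pdgfrb*, against 31% of all genes. *Pi16* was highest in replicate 5, at 1.12 CPM ± 0.227, and lowest in replicate 3, at 0.371 ± 0.0891, while *Itgb1* and *Pdgfra* were lowest in replicate 5 in 4 of 4 groups.

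**Figure D4:**
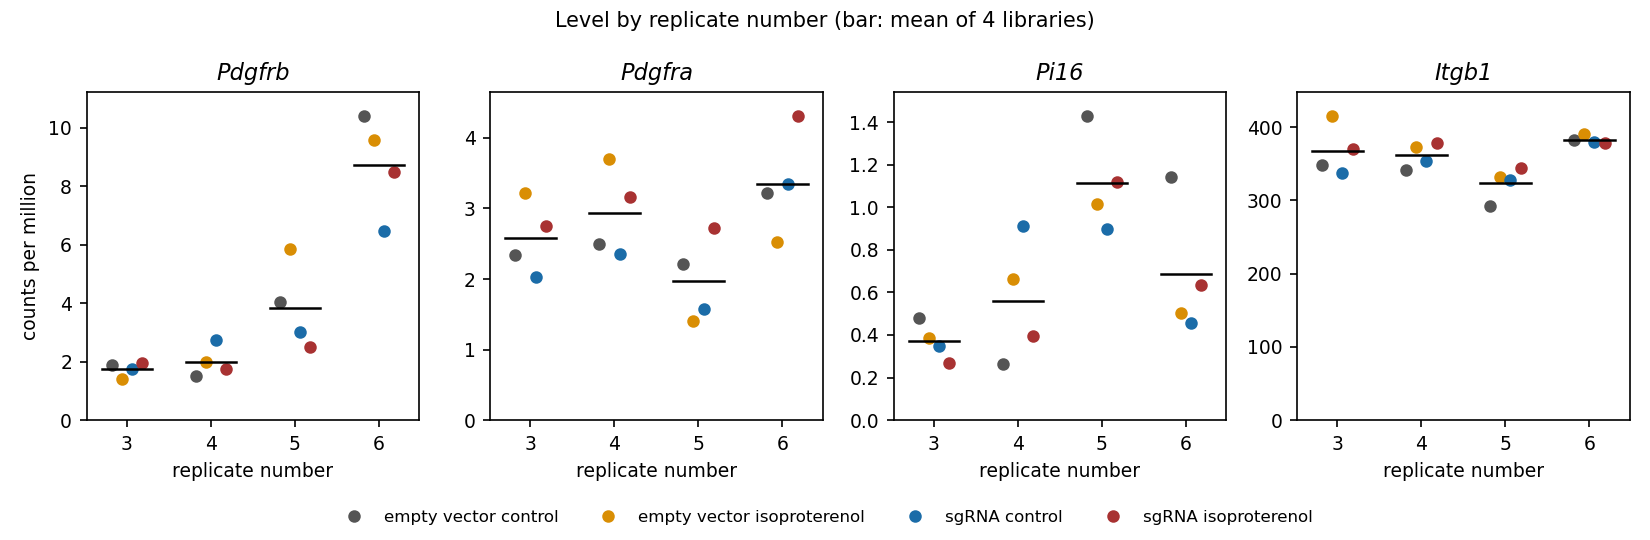
CPM of *Pdgfrb*, *Pdgfra*, *Pi16* and *Itgb1* against replicate number, with 1 point per library coloured by group and a bar at the mean of the 4 libraries. *Pdgfrb* is highest in replicate 6, with a mean of 8.73, and *Pi16* in replicate 5, with a mean of 1.12. Each vertical axis starts at 0 and has its own scale.

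Markers of differentiated cells also differed with replicate number. The summed level of adipocyte markers had a mean of 17010 CPM ± 3559 (SD, n = 4) in replicate 6 and of 22710 to 26060 in the other 3 numbers, so it was lowest where *Ly6a* and *Pdgfrb* were highest. In replicate 5, where *Ly6a* was lowest, it was 22710 ± 3786. The brown adipocyte markers summed to 481 CPM ± 71.5 in replicate 5 and 265 to 326 in the others. The immune markers, whose sum is nearly all *Cd68*, were lowest in replicate 5, as *Ly6a* was, at 10.5 CPM ± 3.94. They summed to 13.5, 18.2 and 15.1 CPM in replicates 3, 4 and 6. The mesothelial markers were highest in replicate 6, at 3.70 CPM ± 0.549, against 2.43 to 3.12 in the others. The mural markers were lowest in replicate 6, where *Ly6a* and *Pdgfrb* were highest, at 8.78 CPM ± 1.37, against 11.7 to 12.3 in the others. The endothelial markers summed to 2.06 to 2.72 CPM over the numbers. Whether these levels bear on the members was not tested, and the labels do not say what sets the replicate numbers apart.

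Genes that work with the members, that share a name with *Dpp4* or that mark fat progenitors were taken as 6 lists (partner genes below). The lists hold 72 genes in all since *Fap* is in 2 of them, and 45 of the genes were tested. Without the block edgeR called 4 of 45 for isoproterenol, against the 2.65% of all genes, and 0 for the sgRNA plasmids. With the block it called 9 of 45 for isoproterenol, against 5.7%, and 0 for the sgRNA plasmids. The median log2 fold change of the 45 with isoproterenol was −0.02, and 0.0047 over all genes tested. Without the block the count was 0 when replicate 3 was left out, where 0.9% of all genes were called, and 1 when replicate 4 was left out, where 1.28% were. It was 5 in DESeq2 and 6 with the ribosomal RNA covariate, against 3.54% and 3.61% of all genes.

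Of the α integrins that pair with integrin β1, 7 of 12 were tested and 2 were called. *Itga7*, a laminin receptor subunit, fell by 0.59 (SE 0.13, adjusted p = 0.0136 by edgeR), and *Itga1*, a collagen receptor subunit, fell by 0.63 (SE 0.14, adjusted p = 0.0138) on the log2 scale with isoproterenol. Both calls were lost without replicates 3, 4 or 6 in turn, where *Itga1* stayed at −0.62, −0.64 and −0.63 and *Itga7* was at −0.43, −0.66 and −0.61. In the blocked fit *Itga7* was under the bound (−0.43) without replicate 3. With the block *Itga5*, the α subunit of the fibronectin receptor, was called too and rose by 0.62 (SE 0.09, adjusted p = 0.000141 by edgeR). *Itga6* had the highest level of them, at a mean of 159 CPM, with a log2 fold change of −0.28 (SE 0.10) that was under the bound. *Itgb1* itself, as given above, was not called.

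Of 9 *Dlk1* and Notch genes, 7 were tested and edgeR called 0 without the block. With it 2 were called, *Notch3* with a rise of 0.90 (SE 0.11, adjusted p = 3.22e-05 by edgeR) and *Sox9*, a transcription factor downstream of *Dlk1* in preadipocytes, with a rise of 0.77 (SE 0.17, adjusted p = 0.00392). Some other fits without the block called them too. *Sox9* was called in DESeq2 (0.78, adjusted p = 0.0198), with the ribosomal RNA covariate (0.83, adjusted p = 0.0294 by edgeR), and when empty vector control replicate 6, empty vector isoproterenol replicate 5 or sgRNA control replicate 4 was left out. *Notch3* was called without replicate 6 (1.00, adjusted p = 0.00563 by edgeR). *Notch3* was called for replicate number as well. Of the endoglin and TGF-β receptor partners, 9 of 12 were tested and 0 were called for isoproterenol in either fit. The most abundant receptors among them were *Bmpr1a*, a type I receptor for bone morphogenetic proteins, with a mean of 95.7 CPM and a log2 fold change of 0.06 (SE 0.08), and *Tgfbr3*, the co-receptor betaglycan, with 39.7 CPM and −0.07 (SE 0.15). Of a list of *Fap* and genes that carry the dipeptidyl peptidase name, not all of them of the serine peptidase family of *Dpp4*, 4 of 7 were tested and 0 called. The highest were *Dpp8*, an intracellular serine peptidase of that family, at 52.0 CPM and *Dpp3*, a zinc metallopeptidase that shares only the name, at 34.0 CPM.

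Among 29 other genes that mark or act in fat progenitors, 16 were tested and 2 called for isoproterenol. *Sema3c*, a secreted semaphorin, rose by 0.87 (SE 0.14, adjusted p = 0.00162 by edgeR), a call that was lost only without replicate 3 (adjusted p = 0.0577 by edgeR) among the settings run. *F3* (CD142), tissue factor, fell by 0.64 (SE 0.17, adjusted p = 0.0421). Leaving out single libraries ended the *F3* call in most cases, with log2 fold changes that stayed at −0.76 to −0.54, while with the block it was −0.65 (SE 0.07, adjusted p = 9.30e-06 by edgeR). With the block *Cd24a*, a surface sialoglycoprotein, rose by 0.53 (SE 0.11, adjusted p = 0.00214) and *Clec11a*, a secreted lectin, fell by 0.63 (SE 0.18, adjusted p = 0.0204 by edgeR). In the blocked fit the *Cd24a* call was lost without replicate 3, without replicate 5 and without the 3 libraries over 40% ribosomal RNA (lowest log2 fold change 0.44). That of *Clec11a* was lost in these settings and without replicate 4 (−0.73 to −0.47). For replicate number 18 of the 45 partner genes were called, against the 19.6% of all genes tested. Besides *Notch3* these included *Itga5* (adjusted p = 9.50e-07 by edgeR), *Cd24a* (adjusted p = 6.95e-09) and *F3* (adjusted p = 5.92e-05), which the blocked fit also called for isoproterenol.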

How the data were processed

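Polyadenylated RNA of 16 wt1-SAM libraries was analysed, 4 in each of 4 groups taken from the sample titles. Per the labels and methods, the authors trimmed reads by quality using cutadapt, and salmon then assigned them to the transcripts of GENCODE M22 (GRCm38). The deposited values are estimated counts per gene, not normalized and already whole. Tool versions and strand use were not given in the sources used here. Coordinates and transcripts came from GENCODE M21 of the same build, which held 54094 of the 54347 identifiers.

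Genes were kept by filterByExpr (minimum count 10, minimum total 15), which left 13150. Tests used edgeR 4.0.16 in R 4.3.3 with TMM scaling, glmQLFit on the 4 group means and two-sided glmQLFTest, with Benjamini-Hochberg adjustment over all genes tested. DESeq2 1.42.0 was an alternative. Other alternatives were RLE size factors, no filter, the ribosomal RNA share as a covariate, the replicate number as a block and leaving out replicates or single libraries. CPM values use TMM-scaled library sizes, and log2 CPM a prior count of 2. Levels per kb use the merged exon length of each gene. The standard error is the log2 fold change over the square root of the F statistic.

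The replicate numbers in the titles were taken to pair the libraries. After the group means of log2 CPM were removed, libraries of the same number correlated at 0.22 to 0.61, above 0.1 in every pair, and at a median of −0.21 between libraries of other numbers and groups. The biological coefficient of variation was 18.0% without and 9.96% with the block. For the isoproterenol comparison the fit without the block was tested on simulated data for 13031 genes. There edgeR recovered 86 of 100 genes changed by 1 on the log2 scale and 99 of 100 changed by 2, and called 5 unchanged genes. The simulated counts held no difference by replicate number, and the blocked fit was not simulated. These rates therefore do not describe the blocked fit, from which the *Ly6a* calls come.

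The members and gene lists were chosen with earlier results of these data known. Named were the 10 members, called genes of the partner lists (up to 4 per list and contrast), the most abundant ligands and receptors, and the 5 genes most like the member of widest range.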

Additional observations from a re-analysis of the deposited data

Results flagged for a closer look

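Of 44 sets of 4 libraries (10 members and *Ly6c1* in 4 groups), 4 held a library that stood apart from the other 3, by a gap of over 0.829 of the whole range. For continuous values about 1 in 20 sets would by chance. That rate does not hold for sets made up mostly of 0 counts, as for *Dpp4* and *Thy1*, so no conclusion is drawn from the number of sets. *Pdgfrb* had 8.47 CPM in sgRNA isoproterenol replicate 6, against 1.75 to 2.48 in the other 3. *Eng* had 0.509 CPM (9 counts) in sgRNA isoproterenol replicate 4. *Dpp4* had 0.0760 CPM in sgRNA control replicate 4 and *Thy1* 0.0602 CPM in empty vector control replicate 3, each of which is 1 count against 0 in the rest of its group.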

How the results depend on the processing

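The replicate block moved the calls of members, and for the sgRNA plasmids so did the handling of ribosomal RNA within it. For isoproterenol the count of members called was 0 in every fit without the block, against 0.9% to 3.61% of all genes. With the block the count was 1 (*Ly6a*) in every fit, against 4.55% to 5.7% of all genes. That held also without the 3 libraries over 40% ribosomal RNA and with the ribosomal RNA covariate. Both of these settings were added to the blocked fit after seeing the data. For the sgRNA plasmids the count was 0 in every fit without the block, against 0% to 0.076% of all genes. With the block it was 1 (*Ly6a*), against 0.266%. In the blocked fit it was 0 without the 3 libraries over 40% ribosomal RNA (0.173%) or with the ribosomal RNA covariate (0.076%). Leaving replicate numbers out of the blocked fit gave 0 to 1, against 0.123% to 0.197%, with 0 without replicate 3 (0.165%). The block changed no other member's call. The count for replicate number was 2 (19.6% of all genes), fell to 1 without replicate 6 (4.26%), was 3 (with *Itgb1*) in DESeq2 (31%) and was 4 at an adjusted p under 0.05 (54.7%). Without the block, leaving out single libraries or replicate numbers gave *Ly6a* log2 fold changes of 0.77 to 1.36 for isoproterenol (lowest without sgRNA isoproterenol replicate 6, highest without empty vector control replicate 6) and −1.06 to −0.37 for the sgRNA plasmids (lowest without sgRNA control replicate 6, highest without empty vector control replicate 6). Over all settings the lowest sgRNA value of *Ly6a* was −1.15, in another fit without the block.

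Effects that were not called changed sign in some settings, and the cause was not tested. With the ribosomal RNA covariate the values were −0.19 for *Pdgfrb* and isoproterenol, and −0.050 for *Pdgfra*, 0.36 for *Pdgfrb* and 0.35 for *Pi16* with the sgRNA plasmids. With block and covariate they were −0.080 (*Pdgfrb*, isoproterenol), 0.067 (*Pdgfrb*, sgRNA) and 0.031 (*Pi16*, sgRNA). Without the 3 libraries over 40% ribosomal RNA the sgRNA values were −0.071 for *Pdgfra* and 0.078 for *Pi16*. In the blocked fit *Pdgfrb* with isoproterenol was −0.014 without replicate 5 and −0.0079 without replicate 6, and *Pdgfra* with the sgRNA plasmids was −0.074 without replicate 6. The sgRNA value of *Itgb1* was 0.0017 with the block, 0.0039 in DESeq2, 0.0041 with RLE size factors, 0.028 without the filter and 0.0048 with the block and without the 3 libraries. In the blocked fit it was 0.038, 0.0041 and 0.023 without replicates 3, 4 and 6. Leaving out replicates or libraries without the block gave ranges of −0.32 to 0.53 for *Pdgfrb* with isoproterenol, and, for the sgRNA plasmids, −0.76 to 0.10 for *Pdgfrb*, −0.10 to 0.16 for *Pdgfra*, −0.39 to 0.020 for *Pi16* and −0.033 to 0.035 for *Itgb1*. Depth limited *Cd34*, *Dlk1*, *Dpp4*, *Thy1* and *Eng*, with 1 to 68 counts in all.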
